A study of Mus musculus with 8 samples.

Results

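CD8 T cells that were still meeting their antigen on day 19, in the presence of TGF-β1, were compared with cells that had met the same antigen until day 7 and had then been rested. The first group is called T_Dysf and the second Acute-7d, each with 2 RNA-Seq libraries out of 8 in the series, and all 24303 genes of the normalized table entered the comparison. The cells were P14 cells, CD8 T cells from the spleens of T cell receptor transgenic mice that recognize the GP33 peptide of lymphocytic choriomeningitis virus. Adult male or female mice were used as donors. In both groups naive cells were activated on plates carrying antibodies against CD3 and CD28 until day 2, and were then grown in medium containing human IL-2 and IL-15 with repeated doses of GP33. On day 7 the Acute-7d cells were moved to medium free of peptide. The T_Dysf cells went on receiving GP33, to which human TGF-β1 was added from day 7. Both were sorted as viable CD8+ cells on day 19. Continued antigen and TGF-β1 were given together, so their parts in any difference cannot be told apart from these libraries. The other 4 libraries, used in the same fit, are Effector cells collected on day 7 and Acute-2d cells, which received no GP33 and were also rested until day 19.

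CD8 T cells that keep meeting antigen in chronic infection or tumours enter a state called exhaustion, in which inhibitory receptors stay high and memory-associated genes are lost. TGF-β1 binds receptors that activate the transcription factors Smad2 and Smad3, and in T cells it is known to induce CD103, the integrin that holds resident T cells in epithelia, and to restrain genes for tissue egress. Rested memory-type cells, by contrast, keep genes for recirculation and survival.

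The libraries held between 19382147 and 24856195 estimated reads on genes, and 3 reads corresponded to 2.59 to 3.35 normalized counts, the floor used below. T_Dysf replicate 1 stood apart in that 51% of its values under 1000 reads came out as whole reads, against 72.2% to 74.9% in the other 7 libraries. The identity of the cells was checked on 10 CD8 T cell genes, which were high in all 4 libraries, and *Cd8a* had 16334 and 18039 normalized counts in Acute-7d and 35908 and 36163 in T_Dysf. *Cd4* stood at 1.12 and 1.01 in Acute-7d and 3.45 and 2.67 in T_Dysf. Within this list *Cd3e*, *Cd3g* and *Thy1* rose and *Cd2* and *Cd5* fell, with log2 fold changes between -1.40 and 1.27. The Acute-7d pair is split by the library name: replicate 1 carries the prefix RESUB, as do both Effector libraries, and replicate 2 does not. The pair also differed in *Xist*, the RNA that coats the inactive X chromosome, at 54.5 and 30427 normalized counts, whereas the T_Dysf libraries had 21871 and 22311. The Y-linked gene *Ddx3y* was at 2161 and 0 in Acute-7d and at 2.59 and 0 in T_Dysf. Both Effector libraries resembled Acute-7d replicate 1, with 115 and 53.5 for *Xist* and 1334 and 1491 for *Ddx3y*. Acute-2d had 26861 and 22105.5 for *Xist* and 0 in both libraries for *Ddx3y*. The labels give donors of both sexes without saying which library came from which. Sex, prefix and library therefore cannot be told apart within the pair, nor sex and prefix over the series. The class and list counts and most of the named genes were therefore also computed with either Acute-7d library left out, but the markers of cell types and the genes looked up afterwards were not.

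Values are read counts that the authors divided by a size factor for each library, called normalized counts here. Differences were tested by limma's moderated test on log2(normalized count + 1), with Benjamini-Hochberg adjustment over all genes. A gene was called at an adjusted p under 0.05 and a fold change of at least 2. Fold changes are on that log2 scale, which understates the change of low genes. Only called genes are said to have risen or fallen. Values after ± are standard errors of the fit, a pair of values in parentheses after a gene is its log2 fold change and adjusted p, and a range given where libraries were left out is one of adjusted p. Values are given for replicate 1 and then replicate 2, and coordinates are those of GRCm38 (mm10). With 2 libraries a group the p-values measure the spread between these libraries, and an exact permutation test of 2 against 2 could not go below 0.333. A difference here may mean fewer cells of a type or less RNA per cell, which bulk RNA cannot tell apart.

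In all, 1353 of the 24303 genes were called (5.57%), 617 of them higher in T_Dysf (2.54%) and 736 lower (3.03%). Among the protein-coding genes 1126 of 15761 were called (7.14%), with 3.43% higher and 3.72% lower. The median log2 fold change of all genes was 0.00. In 532 of the 617 higher genes both T_Dysf libraries lay above all 6 other libraries, and in 572 of the 736 lower genes both lay below all 6. Together these are 81.6% of the called genes, while 23.6% of all genes show such an order. No called gene overlaps between T_Dysf and Acute-7d, so selection already met part of this order and a higher share follows from it. Surface, secreted and transcription factor genes were picked out by symbol patterns. Of 866 surface genes 65 rose and 70 fell (15.6% called), of 342 secreted genes 17 rose and 10 fell (7.89%), and of 834 transcription factor genes 18 rose and 47 fell (7.79%). The other 13719 protein-coding genes had 440 higher and 459 lower (6.55%). Without T_Dysf replicate 1 the called genes were fewest, at 202 higher and 220 lower. Without Acute-7d replicate 1 there were 200 and 340, without Acute-7d replicate 2 there were 332 and 353, and without T_Dysf replicate 2 there were 450 and 1084.

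**Figure D1:**
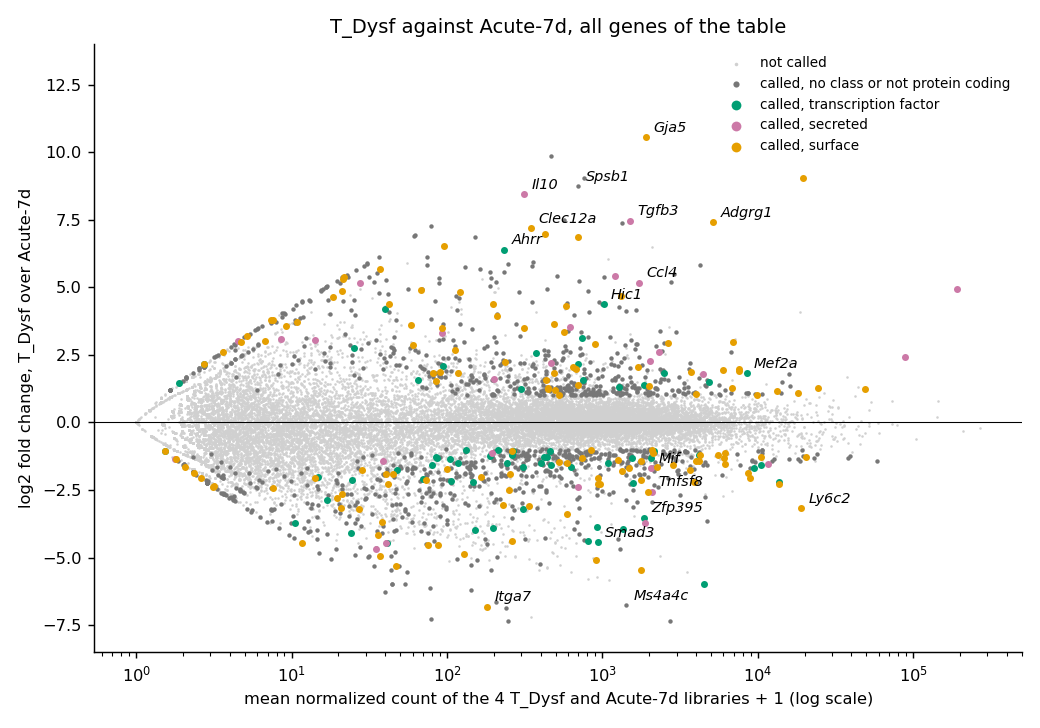
Each point is a gene, with its mean normalized count over the 4 T_Dysf and Acute-7d libraries (plus 1, log scale) against its log2 fold change, and called genes are coloured by class. Called genes reach from 10.55 for *Gja5* at the top to under -7 at the bottom, and surface genes (orange) lie at both ends.

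Of the genes caught by the surface pattern with a mean of at least 50 normalized counts, leaving aside classic markers such as *Itgae*, the 6 with the largest rises were *Gja5*, *Adgrg1*, *Clec12a*, *S1pr3*, *Klra5* and *Slc4a4*. The pattern missed some membrane proteins, such as *Vipr2* and *Ms4a4c*, which are given with the genes of no class. *Gja5* (chromosome 3, 96904693 to 97077416) encodes connexin 40, a gap junction protein best known from heart and arteries. It had 1.12 and 2.02 normalized counts in the Acute-7d libraries and 3585 and 4001 in the T_Dysf libraries. This is a ratio of 2419-fold (95% counting interval 807 to 11449), which covers counting error only, and 10.55 ± 0.47 (adjusted p = 0.00167) on the log2 scale. *Adgrg1* (chromosome 8, 94974751 to 95014217), the adhesion G protein-coupled receptor GPR56 of cytotoxic lymphocytes, rose from 40.2 and 87.8 to 9957 and 10599.9, a log2 fold change of 7.41 ± 0.59 (adjusted p = 0.00581). *Clec12a* (chromosome 6, 129342691 to 129365303), an inhibitory C-type lectin receptor known from myeloid cells, went from 3.35 and 4.04 to 639.6 and 732, a change of 7.19 ± 0.58 (adjusted p = 0.00613). In Effector libraries it stood at 113 and 46.1, so day 7 cells held it at a level between both groups.

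*S1pr3* (chromosome 13, 51408639 to 51422797), a receptor for sphingosine 1-phosphate, rose from 6.69 and 5.05 normalized counts to 766 and 929, with a log2 fold change of 6.95 ± 0.85 (adjusted p = 0.016). The main egress receptor of this family went the other way, since *S1pr1* fell from 3576 and 3391 to 68.2 and 89 (log2 fold change -5.46, adjusted p = 0.00133), while *S1pr2* had 243 and 325 in Acute-7d and 284 and 312 in T_Dysf. *Klra5* (chromosome 6, 129898996 to 129917650) encodes Ly49E, an NK-type lectin receptor. It had 3.35 and 30.3 normalized counts in Acute-7d and 1506 and 1222 in T_Dysf, a log2 fold change of 6.86 ± 1.06 (adjusted p = 0.0273). The Acute-7d libraries were far apart for this gene, and reads of the *Klra* family can be shared between near-identical copies, so its size is uncertain. *Slc4a4* (chromosome 5, 88886818 to 89239653), a sodium bicarbonate cotransporter, had 1.12 and 1.01 in Acute-7d and 184 and 191 in T_Dysf, a ratio of 176-fold (95% counting interval 48.2 to 1451). *S1pr3* was not called when either Acute-7d or either T_Dysf library was left out (adjusted p 0.0542 to 0.0896), and *Klra5* was not called without Acute-7d replicate 1, either Acute-2d library or either T_Dysf library (0.06 to 0.137). The other 4 stayed called with each library left out in turn.

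By the same choice, with the secreted *Tnfrsf11b* passed over, the 6 largest falls were in genes for an integrin, Ly6C, a semaphorin receptor and 3 neighbouring receptors of the TNF receptor family. *Itga7* (chromosome 10, 128933818 to 128958282), the laminin-binding integrin α7, had 339 and 376 normalized counts in Acute-7d and 2.59 and 1.78 in T_Dysf, which is 2 to 3 reads. Acute-7d was higher by 164-fold (95% counting interval 70.4 to 510.2), and the log2 fold change was -6.82 ± 0.49 (adjusted p = 0.00488). *Ly6c2* (chromosome 15, 75108158 to 75111970), which encodes Ly6C, a marker of effector and memory CD8 T cells, fell from 35684 and 32949 to 3592 and 4028. Its log2 fold change was -3.17 ± 0.10 (adjusted p = 0.00058). *Plxnc1* (chromosome 10, 94790866 to 94944835), a receptor for semaphorin 7A, fell from 456 and 745 to 75.1 and 61.4, a change of -3.08 (adjusted p = 0.00945), and was not called without T_Dysf replicate 1 (adjusted p = 0.0554).

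*Tnfrsf23* (chromosome 7, 143665809 to 143685872) and *Tnfrsf22* (chromosome 7, 143634806 to 143649661) encode decoy receptors that bind the death ligand TRAIL without passing on a death signal, and *Tnfrsf26* (chromosome 7, 143607659 to 143628722) lies beside them. *Tnfrsf23* fell from 192 and 144 to 7.22 and 5.34 normalized counts, a log2 fold change of -4.53 ± 0.35 (adjusted p = 0.00562). *Tnfrsf22* fell from 583 and 415 to 15.2 and 32.9 (log2 fold change -4.39, adjusted p = 0.0075). *Tnfrsf26* fell from 1282 and 880.5 to 87.2 and 117 (log2 fold change -3.38, adjusted p = 0.00938), and was not called without Acute-7d replicate 1 or T_Dysf replicate 1 (adjusted p 0.0518 to 0.0624). The 3 genes resemble each other in sequence, so reads may have been split among them. The ligand moved the opposite way. *Tnfsf10*, which encodes TRAIL and was looked up after these values were seen, rose from 2099.7 and 1896 to 6539 and 7324, with a log2 fold change of 1.79 ± 0.26 (adjusted p = 0.0236). *Tnfrsf10b*, the death receptor for TRAIL, had 109 and 116 in Acute-7d and 71.6 and 86.3 in T_Dysf (adjusted p = 0.125). *Tnfrsf11b*, which encodes the secreted TRAIL-binding decoy osteoprotegerin, fell from 277 and 218 to 8.63 and 6.23, a log2 fold change of -4.89 (adjusted p = 0.00554).

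**Figure D2:**
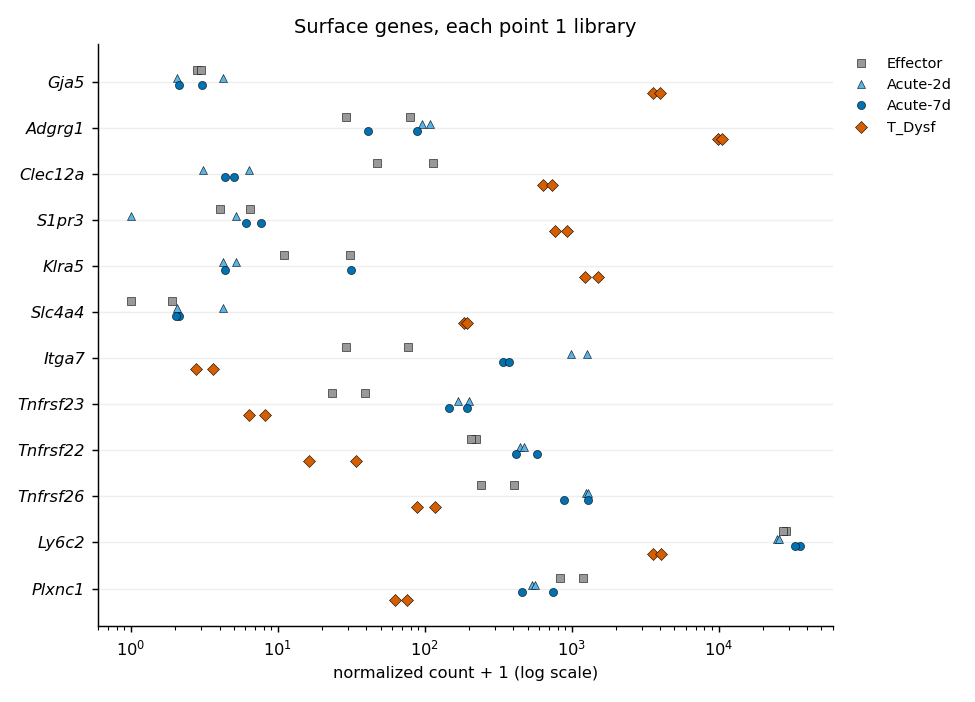
The normalized count plus 1 (log scale) of the 12 surface genes is plotted for each of the 8 libraries, coloured by condition. The T_Dysf points (orange) lie apart from the Acute-7d points (dark blue) in every gene, as the choice of genes required. They lie above them in the upper 6 and below them in the lower 6.

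Of the secreted factors, *Il10* and *Tgfb3* went from near absence to a clear signal, together with a pair of inflammatory chemokines. *Il10* (chromosome 1, 131019845 to 131024974), the anti-inflammatory cytokine IL-10, had 2.23 and 0 normalized counts in Acute-7d and 615 and 637 in T_Dysf, a ratio of 561-fold (95% counting interval 162 to 4835) and a log2 fold change of 8.45 ± 0.66 (adjusted p = 0.00579). Its receptor chain *Il10ra* fell from 3129 and 2491 to 1290.5 and 1469 (log2 fold change -1.02, adjusted p = 0.0203). *Tgfb3* (chromosome 12, 86056745 to 86079041), which encodes TGF-β3, rose from 17.9 and 14.1 to 2756 and 3228, a log2 fold change of 7.46 ± 0.23 (adjusted p = 0.00058). The other 2 ligand genes did not pass. *Tgfb1* had 3499 and 3725 in Acute-7d and 3878 and 3940.2 in T_Dysf, and *Tgfb2* was at 1.12 and 1.01 in Acute-7d and 0 and 2.67 in T_Dysf. *Il10* and *Tgfb3* stayed called with each library left out in turn.

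*Ccl3* (chromosome 11, 83647844 to 83649355) and *Ccl4* (chromosome 11, 83662584 to 83664683) encode neighbouring chemokines of inflammation. *Ccl3* rose from 31.2 and 91.9 normalized counts to 2442 and 2266, a log2 fold change of 5.43 ± 0.59 (adjusted p = 0.0122), and *Ccl4* from 66.9 and 128 to 3633 and 3091, a change of 5.16 ± 0.33 (adjusted p = 0.00392). *Ccl5*, another chemokine gene looked up after these, had 18529 and 16857 in Acute-7d and 53499.7 and 60019.9 in T_Dysf, which did not pass (adjusted p = 0.273). The Effector pair, whose spread enters the same test, had 10689 and 1891. *Timp2* (chromosome 11, 118301069 to 118355740), an inhibitor of matrix metalloproteinases, rose from 11.2 and 23.2 to 170.1 and 164 (log2 fold change 3.29, adjusted p = 0.0145). *Wnt10b* (chromosome 15, 98770712 to 98778150), a Wnt ligand, rose from 744 and 540.2 to 3275 and 4633 (log2 fold change 2.62, adjusted p = 0.0256), while Effector libraries had 3596 and 1767. The Effector and T_Dysf libraries overlap for this gene. Without T_Dysf replicate 1 neither *Ccl3* (adjusted p = 0.0799) nor *Timp2* (0.0909) was called. *Wnt10b* was not called without any one of the Acute-2d, Acute-7d and T_Dysf libraries (0.0618 to 0.103).

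Of the 10 genes caught by the secreted pattern that fell, 6 are described here. They encode a serpin, CD30 ligand, a granzyme, MIF, lymphotoxin β and neuroserpin. CD30 ligand and lymphotoxin β are made as membrane proteins, although the pattern caught their genes. *Serpina3f* (chromosome 12, 104214544 to 104221129), a serine protease inhibitor with near-identical neighbours, fell from 3263 and 3687 to 249 and 276 normalized counts, a log2 fold change of -3.72 ± 0.58 (adjusted p = 0.0277). *Tnfsf8* (chromosome 4, 63831308 to 63861347), the ligand of CD30, fell from 3452 and 3622 to 506 and 708, a change of -2.56 ± 0.38 (adjusted p = 0.0243). *Gzme* (chromosome 14, 56117626 to 56120625) fell from 1100.1 and 1229 to 289 and 165 (log2 fold change -2.41, adjusted p = 0.031), and T_Dysf lay above the Effector libraries, at 85.9 and 46.1. Granzymes E, F and G are close in sequence, so reads may be shared, and the neighbouring *Gzmd* had 2069.6 and 2667 in Acute-7d and 1944 and 1394 in T_Dysf.

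*Mif* (chromosome 10, 75859353 to 75860240), macrophage migration inhibitory factor, fell from 3312 and 2995 to 1097 and 852 normalized counts, with a log2 fold change of -1.70 ± 0.19 (adjusted p = 0.0125). *Ltb* (chromosome 17, 35194439 to 35196320), the membrane-anchoring chain of lymphotoxin that drives lymphoid tissue organization, fell from 16729.7 and 17884 to 5584 and 6338, a log2 fold change of -1.54 (adjusted p = 0.0345). *Serpini1* (chromosome 3, 75557547 to 75643495), which encodes neuroserpin, fell from 260.0 and 274 to 128 and 115 (log2 fold change -1.13, adjusted p = 0.0165). All 6 of these genes lost their call when 1 library was left out. *Mif* did so without either Acute-7d library (0.0554 to 0.0748), and the other 5 without any one Acute-7d or T_Dysf library, with adjusted p 0.0832 to 0.137 for *Serpina3f*, 0.0544 to 0.124 for *Tnfsf8* and 0.0537 to 0.085 for *Serpini1*. *Gzme* (0.0688 to 0.133) and *Ltb* (0.0717 to 0.163) were also not called without either Acute-2d library.

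Among transcription factors more genes fell than rose. Among those with a mean of at least 50 that are not classic markers, the 6 with the largest falls were *Smad3*, *Bach2*, *Klf3*, *Rxra*, *Zfp395* and *Myb*. *Smad3* (chromosome 9, 63646767 to 63757994), which carries the TGF-β signal to the nucleus, fell from 1723 and 1835 normalized counts in Acute-7d to 68.2 and 96.1 in T_Dysf, a log2 fold change of -4.44 ± 0.30 (adjusted p = 0.00461). Its partners were looked up after this and were not called. *Smad2* had 769 and 798 in Acute-7d and 853 and 814 in T_Dysf, with an adjusted p of 0.612, and *Smad4* had a log2 fold change of -0.45, with an adjusted p of 0.0593. *Bach2* (chromosome 4, 32238804 to 32586108), a repressor that maintains memory and restrains effector genes, fell from 1515 and 1552 to 62.1 and 82.7, a log2 fold change of -4.40 ± 0.29 (adjusted p = 0.00432). *Klf3* (chromosome 5, 64803388 to 64832901), a Krüppel-like repressor, fell from 319 and 248 to 14.7 and 19.6 (log2 fold change -3.97, adjusted p = 0.00392).

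*Rxra* (chromosome 2, 27676440 to 27762957), the shared partner of the retinoid, vitamin D and lipid-sensing nuclear receptors, fell from 340.3 and 389 to 14.7 and 37.4 normalized counts, a log2 fold change of -3.89 ± 0.61 (adjusted p = 0.0276). *Rara*, a partner of it, had 1944 and 1762 in Acute-7d and 1455 and 1326 in T_Dysf and did not pass (adjusted p = 0.137). *Zfp395* (chromosome 14, 65358389 to 65398930) fell from 3706 and 3102 to 275 and 313, a change of -3.52 ± 0.23 (adjusted p = 0.0042). *Myb* (chromosome 10, 21124935 to 21160984), needed for stem-like exhausted and memory CD8 T cells, fell from 507 and 597 to 65.8 and 51.6, a change of -3.22 ± 0.41 (adjusted p = 0.0175). Leaving out any one Acute-7d library or T_Dysf replicate 1 ended the calls of *Rxra* (0.0646 to 0.124) and *Myb* (0.0613 to 0.0887), as did either Acute-2d library for *Rxra* and T_Dysf replicate 2 for *Myb*. *Smad3*, *Bach2*, *Klf3* and *Zfp395* stayed called with each library left out in turn.

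Of the 18 transcription factor genes that rose, the 6 described here are *Ahrr*, *Hic1*, *Zfp318*, *Zfp820*, *Irf8* and *Mef2a*. *Ahrr* (chromosome 13, 74211118 to 74292331), the repressor of the aryl hydrocarbon receptor and one of its target genes, had 1.12 and 13.1 normalized counts in Acute-7d and 497 and 416 in T_Dysf, a log2 fold change of 6.38 ± 0.97 (adjusted p = 0.0258). The receptor *Ahr* had 126 and 32.3 in Acute-7d and 186 and 138 in T_Dysf (adjusted p = 0.511), and the libraries of Acute-7d lay far apart. *Tiparp*, another target of the receptor looked up after these values, had 838 and 568 in Acute-7d and 780.5 and 719 in T_Dysf (adjusted p = 0.788). *Hic1* (chromosome 11, 75164565 to 75169519), a zinc finger repressor, rose from 88.1 and 95.9 to 1682 and 2214, a log2 fold change of 4.38 ± 0.28 (adjusted p = 0.00403). *Mef2a* (chromosome 7, 67231163 to 67372858), a MADS-box factor that responds to calcium signals, rose from 3801 and 3643 to 12606 and 13833, a change of 1.83 ± 0.09 (adjusted p = 0.0022).

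*Irf8* (chromosome 8, 120736358 to 120756694), an interferon regulatory factor of myeloid and activated lymphoid cells, rose from 1354 and 870.4 to 3775 and 3946 normalized counts, a log2 fold change of 1.83 ± 0.37 (adjusted p = 0.0494), close to the threshold. *Zfp318* (chromosome 17, 46383731 to 46420920) rose from 224 and 284 to 950.3 and 1343 (log2 fold change 2.16, adjusted p = 0.0389) and *Zfp820* (chromosome 17, 21816885 to 21845772) from 26.8 and 44.4 to 167 and 137 (2.10, adjusted p = 0.0279). *Hic1* and *Mef2a* stayed called with each library left out in turn. *Irf8* was not called when any one of the 8 libraries was left out (0.0543 to 0.186), and *Ahrr* not without either T_Dysf or either Acute-2d library (0.0571 to 0.132). *Zfp318* (0.0655 to 0.175) needed every Acute-2d, Acute-7d and T_Dysf library, and *Zfp820* (0.0594 to 0.14) needed all of these except Acute-7d replicate 2.

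**Figure D3:**
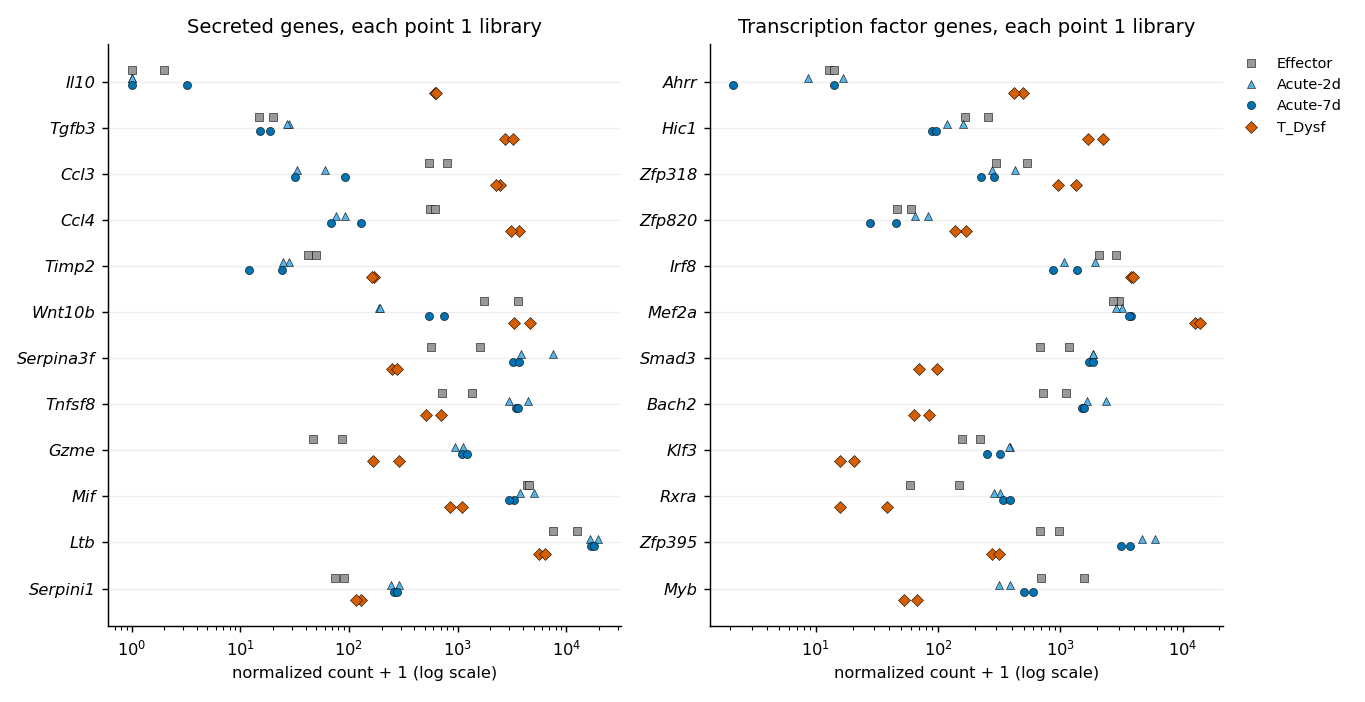
The normalized count plus 1 (log scale) is plotted for each of the 8 libraries, coloured by condition. On the left are the 12 genes caught by the secreted pattern, with the membrane proteins *Tnfsf8* and *Ltb* among them, and on the right 12 transcription factor genes. T_Dysf and Acute-7d do not overlap in any gene, as the choice of genes required. Effector libraries lie with T_Dysf for *Wnt10b* and below it for *Gzme*.

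Genes that none of the 3 patterns caught included large rises as well. *Apol9b* (chromosome 15, 77729039 to 77736382), an apolipoprotein L gene, had 7.36 and 0 normalized counts in Acute-7d and 1360.3 and 1672 in T_Dysf, a log2 fold change of 9.03 ± 1.21 (adjusted p = 0.0195). It shares most of its sequence with *Apol9a*, which was called as well, at 8.26 and 1.01 in Acute-7d and 115 and 147 in T_Dysf, so the share of each is uncertain. *Spsb1* (chromosome 4, 149896283 to 149955043), a SOCS box adaptor that marks the type II TGF-β receptor for breakdown, rose from 1.12 and 4.04 to 1359 and 1437, a change of 8.74 ± 0.74 (adjusted p = 0.00688). *Vipr2* (chromosome 12, 116077726 to 116146261), a receptor for vasoactive intestinal peptide, rose from 12.3 and 18.2 to 2508 and 2813, a change of 7.38 ± 0.52 (adjusted p = 0.00485). *Tmem132e* (chromosome 11, 82388900 to 82446332) and *Syt12* (chromosome 19, 4445908 to 4477447), known from nerve cells, were at 0 in both Acute-7d libraries. In T_Dysf *Tmem132e* had 117 and 195 and was at least 46.6-fold higher than a floor of 3 reads per library, and *Syt12* had 102 and 139.9 and was at least 36.1-fold higher. *Ky* (chromosome 9, 102505750 to 102546239), a muscle peptidase gene, rose from 5.58 and 0 to 302 and 292 (log2 fold change 6.86, adjusted p = 0.0256). *Apol9b* was not called without either T_Dysf library (0.0652 to 0.104), and *Ky* not without Acute-7d replicate 2 or either T_Dysf library (0.0573 to 0.125).

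In the same group the largest falls, among genes with a mean of at least 50 normalized counts, were in *St6gal1*, *Mgarp*, *Ak4*, *Ms4a4c*, *Dnajc27* and *Khdc1a*. *St6gal1* (chromosome 16, 23224740 to 23360350), which adds α2,6-linked sialic acid to surface glycoproteins, fell from 509 and 467 to 7.77 and 0 normalized counts, a log2 fold change of -7.37 ± 1.03 (adjusted p = 0.0214). *Mgarp* (chromosome 3, 51388412 to 51396738) and *Ak4* (chromosome 4, 101419277 to 101466995) encode mitochondrial proteins that hypoxia is known to induce. *Mgarp* went from 145 and 167 to 0 in both T_Dysf libraries, so it was at least 58.4-fold lower, by a floor of 3 reads per library. *Ak4*, an adenylate kinase, fell from 494 and 458 to 2.59 and 3.56, a log2 fold change of -6.88 ± 0.19 (adjusted p = 0.000529). *Ms4a4c* (chromosome 19, 11404770 to 11427246), a 4-span membrane protein with close paralogues, fell from 2358 and 3264 to 25.9 and 23.1, a change of -6.77 ± 0.22 (adjusted p = 0.000657). *Dnajc27* (chromosome 12, 4082583 to 4110606) fell from 402 and 416 to 7.77 and 0.89 and *Khdc1a* (chromosome 1, 21349641 to 21352200) from 299 and 264 to 1.73 and 4.45, log2 fold changes of -6.65 and -6.19. Without either Acute-7d library *St6gal1* (0.0549 to 0.111), *Mgarp* (0.0691 to 0.0867) and *Dnajc27* (0.0659 to 0.0772) were not called. *St6gal1* was also not called without either Acute-2d library, nor *Mgarp* without T_Dysf replicate 1. *Ak4*, *Ms4a4c* and *Khdc1a* stayed called throughout.

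Programmes were described with 22 gene lists, by the count of called members and the median log2 fold change, beside 5.57% called and a median of 0.00 over all genes. Among protein-coding genes with a mean of at least 50 normalized counts, which most members are, 8.43% were called (4.15% higher and 4.28% lower) and the median was 0.07. Of 30 genes of the TGF-β response 8 rose and 0 fell, with a median of 0.25. Besides *Spsb1* and *Tgfb3* they were *Itgae*, *Ldlrad4*, *Pmepa1*, *Itgav*, *Skil* and *Ski*. Of the 8, 4 are also on the list of classic markers, namely *Itgae*, *Pmepa1*, *Skil* and *Ski*. *Ldlrad4*, which encodes an inhibitor of Smad activation, rose from 46.9 and 27.3 normalized counts to 1484 and 1256 (log2 fold change 5.21, adjusted p = 0.00403). *Itgav*, the integrin chain that frees latent TGF-β, rose from 1448 and 1756 to 5768 and 5881 (log2 fold change 1.87, adjusted p = 0.00392). Other members known to respond to TGF-β did not pass. *Smad7*, the feedback inhibitor, had 1477 and 1193 in Acute-7d and 1029.8 and 909 in T_Dysf (adjusted p = 0.144), and *Lrrc32*, which docks latent TGF-β on the cell, had 986 and 382 in Acute-7d and 186 and 108 in T_Dysf (adjusted p = 0.0879). With 1 library left out the count of higher genes stayed between 5 and 8.

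The residency lists moved in opposite directions. Of 33 genes known to be higher in tissue-resident T cells 10 rose and 0 fell, with a median of 0.96, and 3 of the 10 are also on the list of classic markers. *Hpgds*, a prostaglandin D synthase, rose from 165 and 92.9 to 2478 and 2392 normalized counts (log2 fold change 4.29, adjusted p = 0.00828). *Itga1*, the CD49a integrin that binds collagen, rose from 2889 and 2065 to 9359 and 9508 (log2 fold change 1.95, adjusted p = 0.0103). *Litaf* rose from 502 and 552 to 5093 and 5662 (log2 fold change 3.35, adjusted p = 0.00058), and *Isg20*, an exonuclease gene, from 688 and 660.4 to 3753 and 4623 (2.63, adjusted p = 0.0054). Several genes that define residency did not pass. *Cd69* had 5412 and 5367 in Acute-7d and 7866 and 8298 in T_Dysf (adjusted p = 0.0573), *Zfp683*, which encodes Hobit, had 147 and 144 in Acute-7d and 310.4 and 269.6 in T_Dysf (0.0772), and *Cxcr6* had 7543 and 8591 in Acute-7d and 13971 and 15736 in T_Dysf (0.314). *Cdh1*, which encodes E-cadherin, the partner of CD103, had 1920.1 and 1146 in Acute-7d and 12261 and 13187 in T_Dysf, with no overlap and an adjusted p of 0.129. Without T_Dysf replicate 1 only 5 members were called, and *Hpgds* was not among them (adjusted p = 0.0612).

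Of 22 genes known to be lower in resident cells 16 fell and 0 rose, with a median of -3.18, the lowest of the 22 lists, and 6 of the 16 are classic markers. *Nsg2* fell from 334 and 409 normalized counts to 5.18 and 10.7 (log2 fold change -5.45, adjusted p = 0.0171). *Tlr1*, a receptor for bacterial lipopeptides, fell from 727 and 819.9 to 17.9 and 20.7 (log2 fold change -5.25, adjusted p = 0.0015). *Cmah*, the enzyme that makes N-glycolylneuraminic acid, fell from 2527 and 2280.0 to 146 and 97.9 (log2 fold change -4.32, adjusted p = 0.00375). *Sidt1* fell from 1333 and 1198 to 122 and 157 and *Ripor2* from 3934 and 3188 to 756 and 654. One member stood on the other side of 0. *Cx3cr1*, the fractalkine receptor of circulating effector cells, had 6.69 and 13.1 in Acute-7d and 87.2 and 67.6 in T_Dysf (log2 fold change 2.90, adjusted p = 0.058). With 1 library left out between 10 and 16 of the 22 were called, fewest without T_Dysf replicate 1, and *Nsg2* was not called without either Acute-7d library or T_Dysf replicate 1 (0.0785 to 0.0982).

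Most genes of the list for glycolysis and the hypoxia response fell. All 27 members of this list had a log2 fold change below 0, 16 were called lower and 0 higher, and the median was -1.36. The called members included the enzymes *Pfkl*, *Pfkp*, *Aldoa*, *Tpi1*, *Pgk1*, *Pgam1*, *Eno1* and *Pkm*, from phosphofructokinase to pyruvate kinase. *Tpi1*, triose phosphate isomerase, fell from 9106 and 9442 normalized counts to 2499 and 2309 (log2 fold change -1.95, adjusted p = 0.00488), and *Slc16a3*, the lactate exporter MCT4, from 1477 and 1732 to 321 and 335 (-2.28, adjusted p = 0.0256). *Gapdh*, *Ldha* and *Hk2* were not called, with log2 fold changes of -0.47, -0.84 and -0.80. The largest falls were in known targets of the hypoxia-inducible factors. *Ankrd37* fell from 291 and 282 to 43.2 and 24, a log2 fold change of -3.11 ± 0.51 (adjusted p = 0.0312). *Egln3*, a prolyl hydroxylase that marks these factors for breakdown, fell from 3077 and 2801 to 431 and 342, a change of -2.93 ± 0.22 (adjusted p = 0.00553). *Pdk1*, the kinase that keeps pyruvate out of mitochondria, fell from 5383 and 5629 to 915 and 786, a change of -2.70 ± 0.14 (adjusted p = 0.00226). Acute-2d libraries, also rested, were higher still for *Egln3*, at 5315 and 7360.4, and Effector libraries lay at 581 and 749. The list as a whole placed Effector otherwise. Its sums were 238895 and 226259 in Effector, 299529 and 389135 in Acute-2d, 216547 and 207430 in Acute-7d and 99531 and 93433 in T_Dysf. *Egln3* and *Pdk1* stayed called with each library left out. The count of lower members fell to 5 without Acute-7d replicate 1 and to 6 without Acute-7d replicate 2 or T_Dysf replicate 1, and *Ankrd37* was not called without any one Acute-7d, Effector or T_Dysf library (0.0526 to 0.143).

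The hypoxia-inducible factors bind a core that reads ACGTG or GCGTG, and the aryl hydrocarbon receptor binds around GCGTG. The 250 bases before the RefSeq start (GRCm38.p6) are shown for the 3 hypoxia genes with the largest falls and for *Ahrr*, so that these cores can be seen where transcription starts. They read 5′ to 3′ on the gene's strand, with ACGTG or GCGTG on either strand in capitals, and matches can overlap.
Ankrd37, minus strand, chr8:45999851-46000100: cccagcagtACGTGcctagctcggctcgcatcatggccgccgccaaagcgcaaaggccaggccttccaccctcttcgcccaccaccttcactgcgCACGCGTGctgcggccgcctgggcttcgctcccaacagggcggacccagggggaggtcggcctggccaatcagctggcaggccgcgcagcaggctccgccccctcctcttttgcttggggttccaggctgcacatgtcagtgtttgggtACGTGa
Egln3, minus strand, chr12:54203875-54204124: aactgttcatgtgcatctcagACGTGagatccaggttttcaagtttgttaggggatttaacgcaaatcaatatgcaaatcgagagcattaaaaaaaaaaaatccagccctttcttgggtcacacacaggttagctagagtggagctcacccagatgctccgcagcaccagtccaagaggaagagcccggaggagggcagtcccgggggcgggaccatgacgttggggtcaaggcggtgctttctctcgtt
Pdk1, plus strand, chr2:71872974-71873223: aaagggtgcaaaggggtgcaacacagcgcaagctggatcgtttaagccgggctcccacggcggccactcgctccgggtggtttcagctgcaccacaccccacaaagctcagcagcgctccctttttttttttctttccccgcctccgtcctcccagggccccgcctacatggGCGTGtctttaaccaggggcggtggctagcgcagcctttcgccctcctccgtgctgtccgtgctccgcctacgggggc
Ahrr, minus strand, chr13:74292332-74292581: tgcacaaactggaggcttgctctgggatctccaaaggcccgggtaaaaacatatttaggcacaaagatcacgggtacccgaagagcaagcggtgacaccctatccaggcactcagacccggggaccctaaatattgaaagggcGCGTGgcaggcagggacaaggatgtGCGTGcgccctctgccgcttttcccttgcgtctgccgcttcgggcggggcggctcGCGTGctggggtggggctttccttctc
There were 4 matches before *Ankrd37*, 1 each before *Egln3* and *Pdk1* and 3 before *Ahrr*. Of 15 called members of the glycolysis and hypoxia list with a RefSeq promoter 14 held ACGTG or GCGTG (93.3%), and 22 of all 24 members with one did (91.7%). The same letters are found before 63% of 8571 genes with a mean of at least 50 normalized counts and before 41.5% of all 27025 genes. ACGTG was in 10 of the 15 (66.7%) and in 25.9% of the 8571. GCGTG was in 9 of the 15 (60.0%) and in 51.3% of the 8571. Of all 24 members 14 held ACGTG (58.3%) and 16 held GCGTG (66.7%), so the shares belong to the list and not only to its called members. A match is a description of the sequence and not of binding.

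Of the lists for helper-type programmes, the one for regulatory T cells held the most calls, *Il10* among them. Of 22 genes associated with regulatory T cells 5 rose and 2 fell, with a median of 0.48. *Swap70*, a guanine nucleotide exchange factor of lymphocytes, rose from 358 and 307 normalized counts to 2407 and 2477 (log2 fold change 2.88, adjusted p = 0.0154), *Capg*, an actin-capping protein gene, from 1216 and 1454 to 4188 and 3687 (1.56, 0.0409), and *Izumo1r*, which encodes folate receptor 4, fell from 102 and 177 to 6.90 and 3.56 (-4.49, 0.0253). *Ebi3*, a subunit of IL-27 and IL-35, fell as well (log2 fold change -1.86, adjusted p = 0.0276). *Foxp3*, the factor that defines regulatory T cells, stood at 49.5 and 45.2 in Acute-7d and 18.6 and 21 in T_Dysf (adjusted p = 0.235). Of 12 type 17 genes 0 rose and 2 fell, *Rora* (log2 fold change -1.51, adjusted p = 0.031) and *Tmem176b* (-1.75, 0.0122), with a median of -0.66. Of 10 type 2 genes only *Il4ra*, the IL-4 receptor chain, was called. It fell from 9968 and 8366 to 3098 and 3207 (log2 fold change -1.53, adjusted p = 0.00485), and the median was -0.49. Without T_Dysf replicate 1 the 2 type 17 calls were lost and 1 of the 5 higher genes of the regulatory list remained, while *Il10* and *Il4ra* stayed called with each library left out. Calls were lost without any one Acute-7d or T_Dysf library for *Swap70* (0.0538 to 0.0925), *Ebi3* (0.0601 to 0.136), *Rora* (0.0693 to 0.142), *Capg* (0.0759 to 0.18) and *Izumo1r* (0.0572 to 0.103), the last pair also without either Acute-2d library.

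Receptors known from NK cells changed in both directions. Of 25 NK-type receptor and adaptor genes 4 rose and 2 fell, with a median of 1.18. After *Klra5* the rises were in *Klri2*, from 59.1 and 83.8 to 1024 and 787 normalized counts (log2 fold change 3.65, adjusted p = 0.0485), in *Fcer1g*, the signalling adaptor FcRγ, from 53.6 and 182 to 924 and 1111 (3.34, 0.0352), and in *Cd244a*. *Tyrobp*, which encodes the partner adaptor DAP12, had 13.4 and 50.5 in Acute-7d and 229.6 and 208 in T_Dysf, without overlap and with an adjusted p of 0.0674. The falls were in *Ncr1*, the NKp46 receptor, from 30.1 and 105 to 2.59 and 1.78, which is 2 to 3 reads (Acute-7d higher by 30.9-fold (95% counting interval 13.4 to 100.2), adjusted p = 0.0343), and in *Klrb1f*, from 94.8 and 143 to 23.3 and 28.5 (-2.14, 0.0171). *Fcer1g* and *Ncr1* differed more than 3-fold between the Acute-7d libraries. Without either T_Dysf library or either Acute-2d library 0 members were called higher. *Klri2* also lost its call without either Acute-7d library (0.0961 to 0.201) and *Fcer1g* without either Effector library (0.06 to 0.144). *Ncr1* was called only without Acute-7d replicate 1 or Effector replicate 2 (0.0501 to 0.137 otherwise), and *Klrb1f* was not called without Acute-7d replicate 2 or T_Dysf replicate 1 (0.0623 to 0.0949).

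Interferon-stimulated genes leaned lower. Of 28 such genes 27 had a log2 fold change below 0, but only 3 were called. The median was -0.94, beside 0.00 over all genes. When only genes with a mean of at least 50 were tested 8 members were called lower, and with a term for the RESUB libraries 0 were. *Irf1*, an interferon-γ induced factor, fell from 29014 and 16637 normalized counts to 4569.9 and 4888 (log2 fold change -2.22, adjusted p = 0.031), *Gbp4*, a guanylate-binding GTPase gene, from 18976 and 17749 to 7410.3 and 6858 (-1.36, 0.0275) and *Oasl1*, a sensor-like gene, from 24.5 and 23.2 to 3.45 and 3.56 (-2.47, 0.0153). *Isg15* had 137 and 67.7 in Acute-7d and 81.1 and 127 in T_Dysf and was not called. All 3 calls were lost without either Acute-7d library or T_Dysf replicate 1, with adjusted p 0.0531 to 0.147 for *Irf1*, 0.0927 to 0.135 for *Gbp4* and 0.0686 to 0.0855 for *Oasl1*. *Gbp4* and *Irf1* were also not called without T_Dysf replicate 2, nor *Irf1* without either Acute-2d library.

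Several genes for sterol and fatty acid synthesis rose. Of 22 such genes 6 rose and 0 fell, with a median of 0.67. Among them were *Elovl6*, a fatty acid elongase gene, from 321 and 243 normalized counts to 870.3 and 955 (log2 fold change 1.70, adjusted p = 0.00708), and the sterol enzyme genes *Idi1* (1.30, 0.0489), *Fdps*, *Lss* and *Cyp51*. *Srebf2*, the main transcription factor of the pathway, was not called (-0.07, 0.842). For *Elovl6* the Effector libraries, at 1267 and 1365, were higher than T_Dysf. *Elovl6* stayed called with each library left out, and 1 member was called without T_Dysf replicate 1 or Acute-7d replicate 1. *Idi1* missed the fold or the test when any one library other than Acute-7d replicate 2 was left out (0.00941 to 0.189).

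Few regulators of receptor signalling were called. Of 31 brakes on T cell receptor signalling 2 rose and 2 fell, with a median of 0.16. *Ptpn6*, which encodes the phosphatase SHP-1, rose from 2824 and 3545 normalized counts to 6659 and 6961 (log2 fold change 1.11, adjusted p = 0.0139), and *Sla2*, an adaptor that lowers receptor levels, from 1441 and 1508 to 2976 and 2994 (1.02, 0.0247). *Dgka*, a diacylglycerol kinase that dampens Ras signalling, fell from 11639 and 11246 to 4116 and 3523 (-1.59, 0.00485), and *Rasa3* fell as well (-1.22, 0.0159). Of 24 regulators of G protein signalling 3 rose and 2 fell, with a median of -0.05. *Rgs10* rose from 359 and 353 to 2115 and 2169.8 (log2 fold change 2.58, adjusted p = 0.0207), *Rgs16* from 401 and 490.5 to 2152 and 2441 (2.37, 0.0269) and *Rgs18* from 161 and 162 to 328 and 431 (1.22, 0.028). These encode proteins that shorten signals from G protein-coupled receptors. *Arrb1*, which encodes β-arrestin 1, fell from 3686 and 3644 to 518 and 437 (-2.94, 0.0123) and the receptor kinase gene *Grk5* from 226 and 257 to 20.7 and 38.3 (-3.05, 0.00983). Of 32 genes of the actin cytoskeleton and annexins 0 rose and 3 fell, among them *Ahnak* (-1.44, 0.0476) and *Actn1* (-1.34, 0.0343), with a median of -0.32. *Dgka* stayed called with each library left out. Without either Acute-7d library 0 of the 24 G protein genes were called in either direction, with adjusted p 0.0547 to 0.0562 for *Grk5* and 0.0611 to 0.0725 for *Arrb1*, which was also lost without T_Dysf replicate 1. *Rgs10* (0.0703 to 0.112), *Rgs18* (0.0691 to 0.132), *Rasa3* (0.0559 to 0.0923) and *Sla2* (0.0799 to 0.124) were not called without any one Acute-7d or T_Dysf library. The same held for *Rgs16* (0.0561 to 0.134), *Actn1* (0.069 to 0.145) and *Ahnak* (0.0973 to 0.221), which also needed both Acute-2d libraries. *Ptpn6* missed the fold or the test without Acute-7d replicate 1 or either T_Dysf library (0.039 to 0.0811).

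Lists for mitochondria, redox, translation and stress held 1 or 2 calls each. Of 21 genes of mitochondrial biogenesis and dynamics 0 rose and 2 fell, with a median of 0.10. *Polg*, the mitochondrial DNA polymerase, fell from 2136 and 2025 normalized counts to 635 and 541 (log2 fold change -1.83, adjusted p = 0.00228) and *Ppargc1b* from 354 and 261 to 138 and 124 (-1.21, 0.037). Of 23 redox genes 2 rose, *Gclm*, a subunit of the enzyme that starts glutathione synthesis (1.66, 0.0183), and the peroxiredoxin gene *Prdx1* (1.20, 0.0455), with a median of 0.17. Of 34 translation factor genes only *Eef2k*, the kinase that halts elongation, rose, from 464 and 713 to 1676 and 1783 (1.59, 0.0312), and the median was -0.02. Of 20 genes of integrated and endoplasmic reticulum stress only *Sdf2l1*, a chaperone partner gene, rose (1.92, 0.0185), with a median of 0.34. *Polg* stayed called with each library left out. *Gclm* (0.0558 to 0.108) and *Sdf2l1* (0.0642 to 0.0971) were not called without any one Acute-7d or T_Dysf library, nor were *Prdx1* (0.0837 to 0.192) and *Ppargc1b* (0.0651 to 0.14), which also needed both Acute-2d libraries. *Eef2k* was not called without Acute-7d replicate 1 or any one Effector or T_Dysf library (0.0568 to 0.138).

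Of 20 p53 target genes 2 rose, *Plk3*, a stress kinase gene (2.01, 0.0139), and the nuclease gene *Aen* (1.13, 0.0303), and 1 fell, with a median of -0.05. The one that fell was *Fas*, the CD95 death receptor, from 114 and 108 normalized counts to 25 and 14.2 (log2 fold change -2.49, adjusted p = 0.0181). It is also on the list of 25 death and survival genes, where *Pim1*, a survival kinase gene, fell too (-1.45, 0.0202) and 0 rose, with a median of 0.04. *Bcl2* was lower by less than 2-fold (-0.78, 0.0282). Of 24 epigenetic modifiers only *Cbx7*, a Polycomb reader, was called. It fell from 7813 and 6234 to 2272 and 2422 (-1.57, 0.00919), and the median was 0.03. *Cbx7* was not called without T_Dysf replicate 1 (0.0658), *Plk3* not without that library or either Acute-7d library (0.0684 to 0.0773), *Pim1* not without any one Acute-2d or T_Dysf library (0.0519 to 0.115) and *Fas* not without either Acute-7d library (0.0765 to 0.0967). *Aen* lost its call whichever of the 8 libraries was left out (0.0513 to 0.126). For comparison, of the 45 classic exhaustion and memory markers 17 rose and 9 fell, with a median of 0.57, and without T_Dysf replicate 1 the counts were 4 and 4. That list was drawn from genes the study reports for these libraries and is not independent of them.

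**Figure D4:**
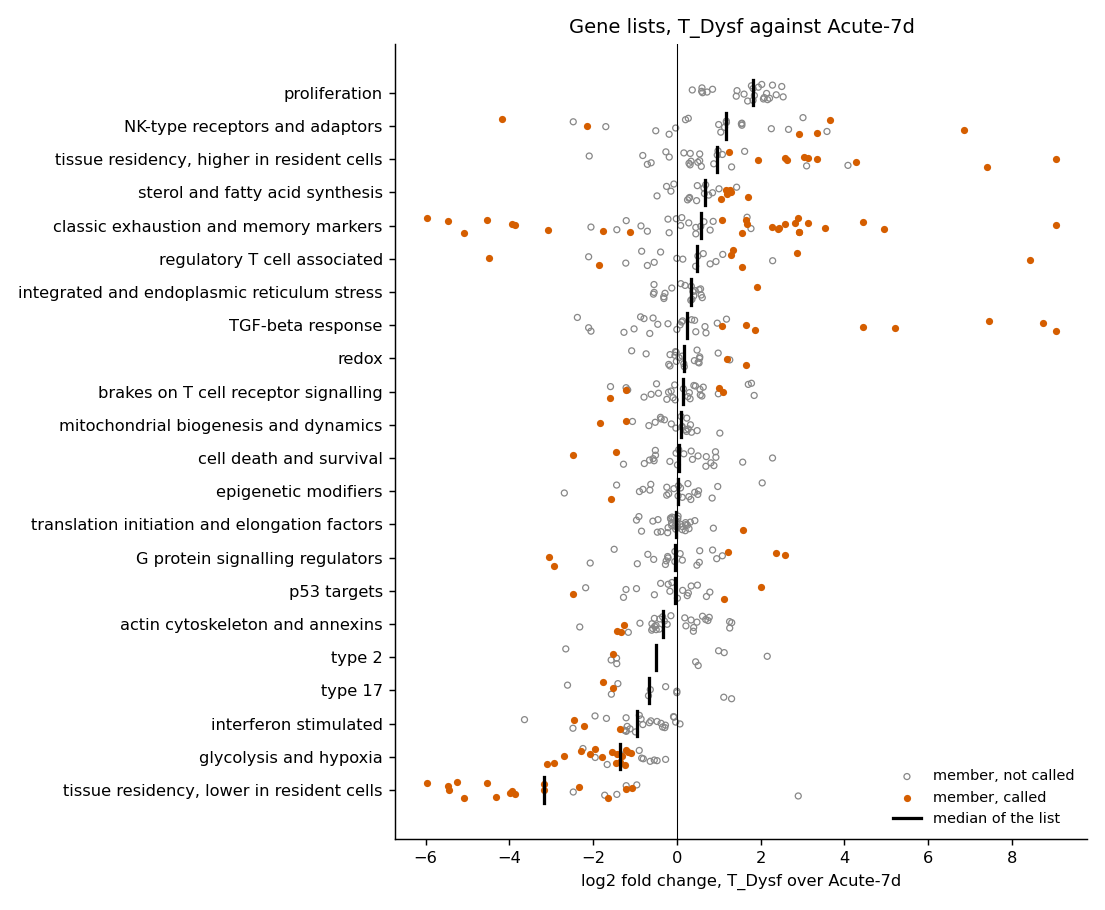
Each point is a member of a gene list placed by its log2 fold change (positive where T_Dysf is higher), filled where called, and black bars are list medians, from 1.82 for proliferation to -3.18 for genes lower in resident cells. Called members of the glycolysis and hypoxia list all lie left of 0, while no member of the proliferation list is filled although all lie right of 0.

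Most defining markers of other cell types were low, and a few were called. Summed over 6 B cell genes the Acute-7d libraries had 61.4 and 73.7 normalized counts and the T_Dysf libraries 193 and 171, and 1 of the 6 was called. This was *Cd79b*, which rose from 30.1 and 38.4 to 136 and 115 (adjusted p = 0.0307). Of 5 plasma cell genes 3 rose, with sums of 2404 and 2424 in Acute-7d and 7764 and 7209 in T_Dysf. *Ighm*, the IgM heavy chain constant region, rose from 2364 and 2392 to 7385 and 6766 (log2 fold change 1.57, adjusted p = 0.00177), *Jchain*, which joins secreted antibody subunits, from 6.69 and 2.02 to 236 and 275 (5.73, 0.0103), and *Sdc1*, the CD138 proteoglycan, from 2.23 and 5.05 to 113 and 148 (4.88, 0.00813). *Igha*, the IgA constant region, looked up after these, rose from 3.35 and 8.08 to 1086 and 1154 (7.48, 0.008). *Igkc*, the κ light chain that antibody-secreting cells express, was at 31.2 and 25.2 in Acute-7d and 28.5 and 20.5 in T_Dysf, and *Mzb1*, a plasma cell chaperone, at 0 and 0.0254 in Acute-7d and 0.863 and 0 in T_Dysf. The part of other cells in these values was not tested. Of 3 NK cell genes *Ncr1* fell, and the sums were 1038 and 1497 in Acute-7d and 249 and 551 in T_Dysf. Of the γδ T cell genes *Trdc* stood at 9579.9 and 7894 in Acute-7d and 11389 and 8653 in T_Dysf and *Trgc1* rose from 537 and 637 to 1985 and 1872. Of 6 dendritic cell genes *H2-Ab1* fell from 411 and 547 to 148 and 128, and *Siglech* and *Clec9a* were at 3.03 or below. The sums of these 6 went the other way, at 1469 and 2012 in Acute-7d and 3878 and 3662 in T_Dysf. In this list 3 genes had a log2 fold change above 0 and 3 below, and 0 were called higher. None of 6 macrophage, monocyte and neutrophil genes was called, with sums between 423 and 614, and none of 3 CD4 T cell genes, 3 erythroid genes, 1 platelet gene and 5 stromal and epithelial genes was called by limma either.

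The split of the Acute-7d pair touched some results more than others. Of the 1353 called genes 1238 (91.5%) differed 2-fold or more from each Acute-7d library on its own, and in 76 (5.62%) the Acute-7d libraries were 2-fold or more apart, 36 higher in replicate 1 and 40 higher in replicate 2. Among 11929 genes with a mean of at least 50 normalized counts the Acute-7d libraries were that far apart in 369 (3.09%) and the T_Dysf libraries in 662 (5.55%). With a term for the RESUB libraries, which leaves Acute-7d replicate 2 as the reference, 199 genes were higher and 342 lower. All 1353 genes kept their direction there and with each library left out. Neither setting could have reversed a direction, because no called gene had overlapping groups. *Xist* and the Y-linked genes follow the prefix over all 8 libraries, so the term cannot be told apart from sex.

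Proliferation genes differed within the Acute-7d pair. None of the 25 was called, although all 25 were higher in both T_Dysf libraries than in both Acute-7d libraries. The median log2 fold change was 1.82, and 18 had an unadjusted p under 0.05 by limma, as did 6344 of all 24303 genes. How many of all genes separate the pairs in this way was not counted. *Mki67*, which encodes Ki-67, had 1096 and 3371 normalized counts in Acute-7d and 6848 and 6734 in T_Dysf (adjusted p = 0.156), and *Rrm2*, a subunit of ribonucleotide reductase, had 204 and 826 in Acute-7d and 2486 and 2198 in T_Dysf (0.112). All 25 were higher in Acute-7d replicate 2 than in replicate 1, with 18 of them 2-fold or more apart. Against replicate 1 the median of the list was 2.72 and against replicate 2 it was 1.02. Without Acute-7d replicate 2, 9 members were called higher, and 18 were called when only genes with a mean of at least 50 were tested. Effector libraries were higher still, at 16144 and 28620.2 for *Mki67*. The part of the RESUB prefix in this spread was not tested.

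**Figure D5:**
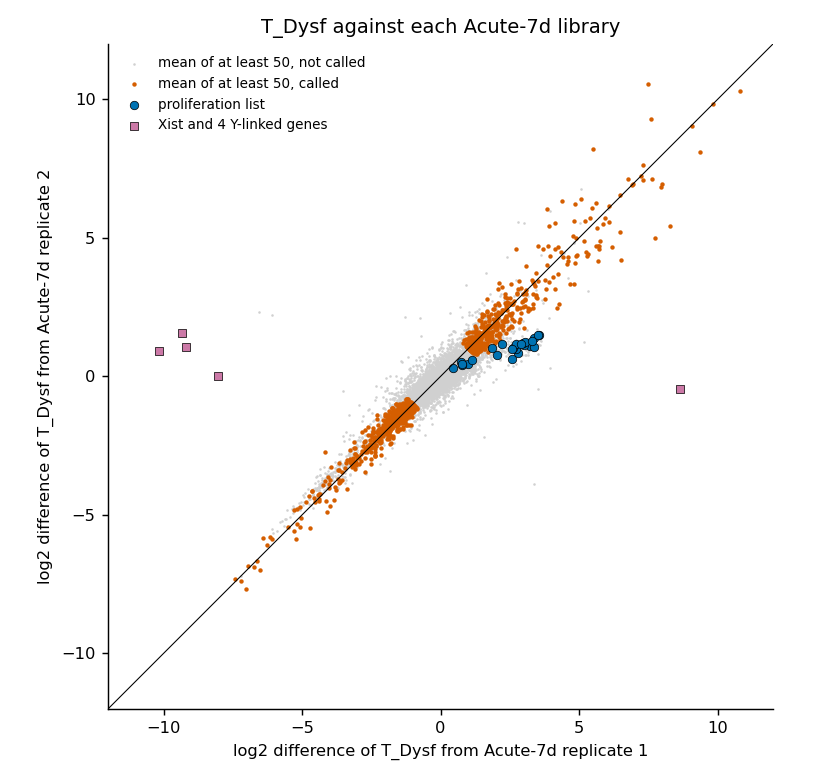
The mean of the T_Dysf libraries minus Acute-7d replicate 1 (x axis) and minus replicate 2 (y axis), on the log2(normalized count + 1) scale, is plotted for genes with a mean of at least 50, for the proliferation list and for *Xist* and 4 Y-linked genes. Called genes (orange) follow the diagonal, the proliferation genes (blue) lie below it, and *Xist* and the Y-linked genes (squares) lie far from it.

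Set beside the other conditions, which share the T_Dysf libraries with this comparison, the genes had these values in the same fit. For *Tgfb3* the log2 fold changes were 7.46 over Acute-7d, 6.75 over Acute-2d and 7.42 over Effector, and for *Smad3* they were -4.44, -4.50 and -3.45. Effector also differs from T_Dysf in day, prefix and *Xist*, whose parts cannot be told apart. Some genes were closer to Effector or on the other side of it. *Wnt10b* had 2.62 over Acute-7d and 0.63 over Effector, *Ccl3* had 5.43 and 1.83, *Tnfsf8* had -2.56 and -0.72, and *Gzme* had -2.41 and 1.78. For *Clec12a* the values were 7.19 and 3.22.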

How the data were processed

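RNA was extracted from sorted cells, selected for polyA and sequenced, with 2 libraries per condition, described in the study as biological replicates. Within Partek Flow the authors used STAR for alignment to mm10, RefSeq transcripts for quantification and median-ratio scaling as in DESeq2. The deposited values are a signal, estimated read counts divided by a size factor, for 24303 genes. Per the methods genes with a maximum under 50 were excluded, yet the table holds such genes. Each library's commonest small value was taken as 1 read. Because 51% to 74.9% of the values under 1000 reads were whole (within 0.01 reads), count models were not fitted.

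All 8 libraries entered 1 limma fit (version 3.58.1, R 4.3.3; lmFit and eBayes with trend) of 4 group means on log2(normalized count + 1), with 4 residual degrees of freedom. Tests were two-sided. Intervals of ratios at 1 to 3 reads are exact binomial (95%) and, like the floor of 3 reads, cover counting error only. Scripts used Python 3.11.15, numpy 2.4.6, pandas 2.3.3, scipy 1.17.1 and matplotlib 3.10.9, and the fit was tested on simulated data. GENCODE vM21 and RefSeq (GRCm38.p6) gave positions and gene types, and matched 23585 and 533 genes, with 185 unmatched. The counting is not stated to use strand, so overlapping and antisense genes cannot be told apart.

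The gene lists, classes and named genes were chosen with earlier results of these data known. In each class the 6 largest log2 fold changes in each direction were named among called protein-coding genes with a mean of at least 50 over the 4 libraries and no overlap, leaving out classic markers, *Xist* and Y-linked genes, and up to 3 called members in each direction of each list. *Tnfrsf11b*, a secreted protein that the surface pattern caught, was passed over, and results for some genes are left out. *Tnfsf8* and *Ltb*, membrane proteins that the secreted pattern caught, were kept. Other list members and genes were named after their values were seen. The alternatives changed the pseudocount, filter, scaling, samples, replicate block and RESUB term. Replicate numbers were not taken as pairs.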

Additional observations from a re-analysis of the deposited data

How the results depend on the processing

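The main counts were 617 genes higher and 736 lower in T_Dysf. With another pseudocount (0.1 or 10), a mean or maximum of at least 50, protein-coding genes only, equal totals or quantile normalization, between 580 and 831 genes were higher and between 629 and 881 lower. Equal 75th percentiles gave 531 higher and 817 lower. A fit to the 4 libraries of both conditions gave 411 higher and 501 lower, a term for the RESUB libraries 199 and 342, and an unadjusted p under 0.05 1403 and 1781. With 1 library left out at a time between 200 and 654 genes were higher and between 220 and 1084 lower. All 1353 genes kept their direction in each of these settings that tested them, and of 96 named genes 31 stayed called in all 19 settings. The calls of 58 were lost without T_Dysf replicate 1, of 43 without T_Dysf replicate 2, of 50 without Acute-7d replicate 1, of 47 without Acute-7d replicate 2 and of 50 with the RESUB term, and 0 reversed. A reversal was not possible with a library left out or with the RESUB term, because no called gene had overlapping groups. The cause of these losses was not tested.

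With the replicate number as a replicate block 398 genes were higher and 493 lower, 857 of them among the 1353. Whether libraries of the same number share a donor is not stated. The correlation of replicate differences ran from -0.199 to 0.197 over 6 pairs of conditions and was -0.0375 between Acute-7d and T_Dysf. Weak correlations cannot decide whether the numbers pair the samples. Depth limits the genes at or under 3 reads in 1 group, whose folds are bounds or intervals.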
